A study of Caenorhabditis elegans with 4 samples.

Results

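The genes described here are 9 *C. elegans* genes with at least 1 probe set that was lower after 1 h of copper in both *kgb-1* mutants and wild-type animals: *F26A1.8*, *C23G10.11*, *F45D3.3*, *dpf-6*, *C11G10.1*, *B0361.9*, *D2023.1*, *rfc-2* and *clh-1*. They were chosen by their signals on these same arrays, so their fall with copper is a description and carries no test here. All probe sets annotated to 1 of these symbols alone were taken, which gave 15 of the 22548 probe sets for worm transcripts, for 9 of the 17118 genes that have a probe set of 1 symbol. Total RNA of whole 1-day adults was measured on Affymetrix *C. elegans* GeneChips, with 1 array for each of 4 conditions. *kgb-1(km21)* mutants and wild-type animals (WT, both of the N2 Bristol background) were fed OP50 bacteria on NGM plates at 20 °C, then kept for 1 h in 1 mM copper sulfate or in water. KGB-1 is a MAP kinase of the JNK type that acts in the heavy metal response, and the arrays were used to find genes whose copper response depends on it.

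Copper is an essential metal that becomes toxic in excess, and animals answer it with rapid changes in mRNA levels. After an exposure this short, the level of an mRNA reflects both how fast it is made and how fast it is degraded. In whole animals a drop in signal can come from fewer cells of a type or from less RNA per cell, and these cannot be told apart. Among the 9 genes, 3 belong to well-described families. *clh-1* encodes a chloride channel of the ClC family, membrane proteins that work as dimers and move chloride or exchange it for protons. *rfc-2* encodes a subunit of replication factor C, the complex that loads the PCNA sliding clamp onto DNA during replication and repair. *dpf-6* encodes a member of the dipeptidyl peptidase IV family of serine peptidases. The other genes are known here by their sequence names only, and no role is given for them.

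Signals are MAS5 intensities in arbitrary units, on arrays that had been scaled to a common intensity. A signal under 100 was treated as too low to measure, and where the dimmer of a pair was under 100 the fold was computed against 100 and is a lower bound. Each condition was read on a single array without biological replicates, so no fold within a genotype has an error. As a measure of technical spread, 18 hybridization controls were used, whose log2 ratios between arrays had an SD of 0.18 to 0.22. Worm probe sets reaching 100 numbered 10411 to 10618 per array. The probe set of *kgb-1* itself gave 229 in copper-treated and 179.5 in untreated mutants and 314 in copper-treated and 129 in untreated WT animals, and whether its probes lie in the part deleted in *km21* is not stated in the sources used here, so it does not check the genotype.

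All 9 genes had at least 1 probe set whose signal after copper, as deposited, was under 0.5 of that in water in both genotypes. By probe set, 11 of 15 were past this 2-fold limit in *kgb-1* mutants and 9 of 15 in WT animals, and 9 were past it in both. With signals under 100 raised to 100 the counts were 11 in *kgb-1* mutants and 8 in WT animals, since the WT fall of *D2023.1* rests on a copper signal of 21.1. Over all probe sets that reached 100 with or without copper, 0.753% of 10896 were past the same limit in *kgb-1* mutants, 1.08% of 10921 in WT animals and 0.246% of the 10551 that did so in both genotypes were past it in both. These counts follow from how the genes were chosen. The median log2 ratio of copper to water over the 15 probe sets was -1.26 in *kgb-1* mutants and -1.62 in WT animals, against -0.0063 and 0.012 over the 11266 probe sets that reached 100 on some array, which are those tested below.

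**Figure D1:**
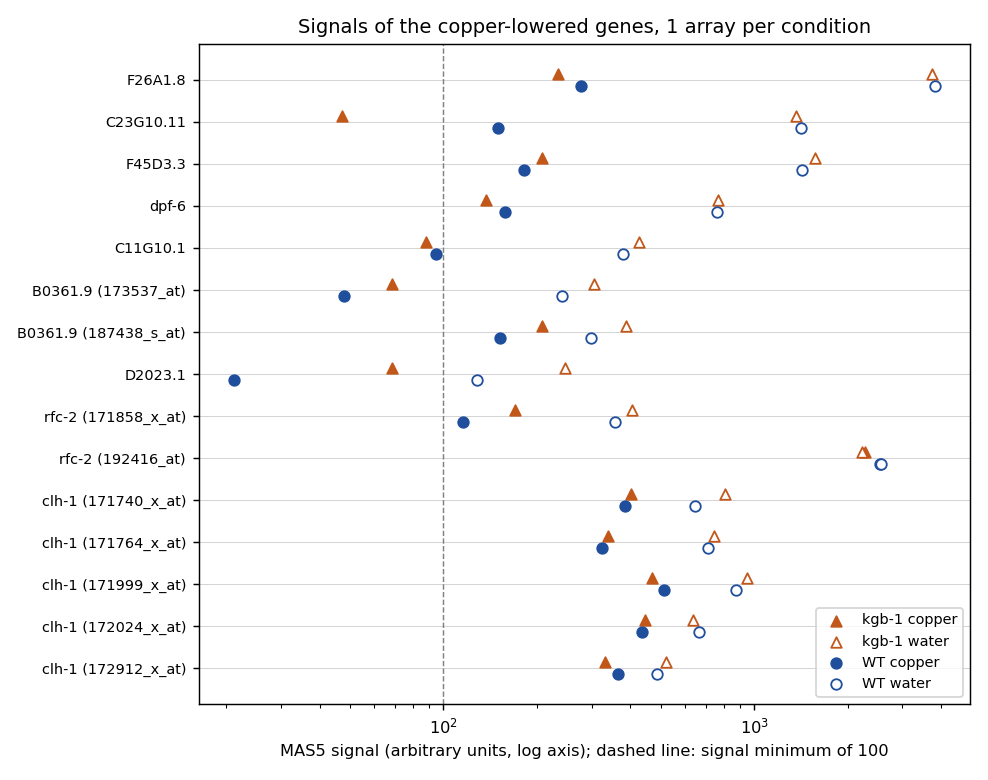
MAS5 signal (log axis) of each of the 15 probe sets on the 4 arrays, with filled symbols for copper, open symbols for water, triangles for *kgb-1* and circles for WT. Filled symbols lie left of the open ones in every row except that of the *rfc-2* probe set without a suffix, whose 4 signals lie between 2217 and 2553.

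*F26A1.8* had the largest measured fall that is not a bound. It gave 233 in copper-treated and 3736 in untreated *kgb-1* mutants, a 16.04-fold fall, and 277 in copper-treated and 3833 in untreated WT animals, a 13.9-fold fall. Both copper signals were far below both water signals and still above the limit of 100. A further probe set, annotated to *F26A1.8* and *F26A1.7* together and not counted among the 15, gave 90.1 and 1159 in copper-treated and untreated mutants and 87.8 and 1171 in WT animals, falls of at least 11.6-fold and 11.7-fold. The probe set of *F26A1.7* alone stayed under 100 on all 4 arrays, between 10.6 and 32.3, so no signal of that gene was measured apart from *F26A1.8*. On genome build WBcel235, *F26A1.8* lies on chromosome III from 4820650 to 4822240, and *F26A1.7* from 4815820 to 4819943.

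*C23G10.11*, a short gene on chromosome III (6215164 to 6215576), was also lower after copper in both genotypes. Its signal was 47.1 in copper-treated and 1361 in untreated *kgb-1* mutants, a fall of at least 13.6-fold, and 149.8 in copper-treated and 1418 in untreated WT animals, a 9.46-fold fall. Without copper both genotypes were close, and with copper the mutant signal dropped under the limit of 100 while the WT signal did not. *F45D3.3*, on chromosome V from 12549211 to 12550385, is read only by a probe set with the suffix _s_at, which marks probes shared between transcripts. It gave 208 in copper-treated and 1571 in untreated mutants and 181 in copper-treated and 1427 in untreated WT animals. That is 7.56-fold in the mutants and 7.88-fold in WT animals, a difference of 0.060 between the log2 ratios.

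The peptidase gene *dpf-6* (chromosome III, 8038241 to 8041329) gave 137 in copper-treated and 763 in untreated *kgb-1* mutants and 158 in copper-treated and 759 in untreated WT animals. It fell 5.56-fold in the mutants and 4.81-fold in WT animals, with all 4 signals above 100. *C11G10.1*, the only one of the 9 genes on chromosome X (15157359 to 15158749), gave 87.8 and 425 in the mutants and 94.8 and 379 in WT animals. Both copper signals were under 100, so these falls are bounds, at least 4.25-fold in the mutants and at least 3.79-fold in WT animals.

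*B0361.9* has a pair of probe sets that moved by different amounts. The first, whose name ends in a plain _at, gave 68.5 in copper-treated and 306 in untreated *kgb-1* mutants and 47.9 in copper-treated and 241 in untreated WT animals, at least 3.06-fold lower in the mutants and at least 2.41-fold lower in WT animals. The other, with the suffix _s_at that marks probes shared between transcripts, gave 208 and 388 in the mutants and 153 and 299 in WT animals, 1.87-fold and 1.96-fold, which is just short of 2-fold in both genotypes. Both probe sets had their copper signals under their water signals in both genotypes. The gene lies on chromosome III from 7298348 to 7299631, inside the span of *cwf-19L2* (7293634 to 7308355), whose 3 probe sets were not called for copper. *D2023.1*, on chromosome V from 11789550 to 11800544, is read by an _s_at probe set only. It gave 68.4 in copper-treated and 245 in untreated mutants and 21.1 in copper-treated and 128 in untreated WT animals. With the limit of 100 the falls are at least 2.45-fold in the mutants and at least 1.28-fold in WT animals.

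For *rfc-2* the 2 probe sets disagreed. On the one with the suffix _x_at, which Affymetrix gives where some probes also match other sequences, the signal was 169 in copper-treated and 405 in untreated *kgb-1* mutants and 116 in copper-treated and 356 in untreated WT animals, falls of 2.39-fold and 3.07-fold. On the one without a suffix it was 2280.0 in copper-treated and 2217 in untreated mutants and 2548 in copper-treated and 2553 in untreated WT animals, log2 ratios of 0.040 and -0.0028, well inside the control SD. The array does not settle which of them follows the *rfc-2* transcript (chromosome IV, 1347314 to 1352977), and the label of a gene lowered by copper holds for only 1 of its 2 probe sets.

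The chloride channel gene *clh-1* is read by 5 probe sets, all of which carry the suffix _x_at. The largest WT fall was seen on a probe set with 338 in copper-treated and 742 in untreated *kgb-1* mutants and 324 in copper-treated and 712 in untreated WT animals, 2.197-fold in the mutants and 2.199-fold in WT animals. The next gave 468 and 951 in the mutants (2.03-fold) and 512 and 875 in WT animals (1.71-fold). Another gave 400.3 and 808 in the mutants (2.02-fold) and 384 and 644 in WT animals (1.67-fold). The other 2 fell less, by 1.43-fold and 1.57-fold in the mutants and by 1.52-fold and 1.34-fold in WT animals. Every copper signal of *clh-1*, 324 to 512 over both genotypes, was below the water signal of the same probe set. The fall was seen on all 5 probe sets, and was past 2-fold on 3 of them in the mutants and 1 in WT animals. Since all 5 carry the suffix _x_at, other sequences may contribute to each signal, and how much was not measured. The gene lies on chromosome II from 11846507 to 11856461.

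**Figure D2:**
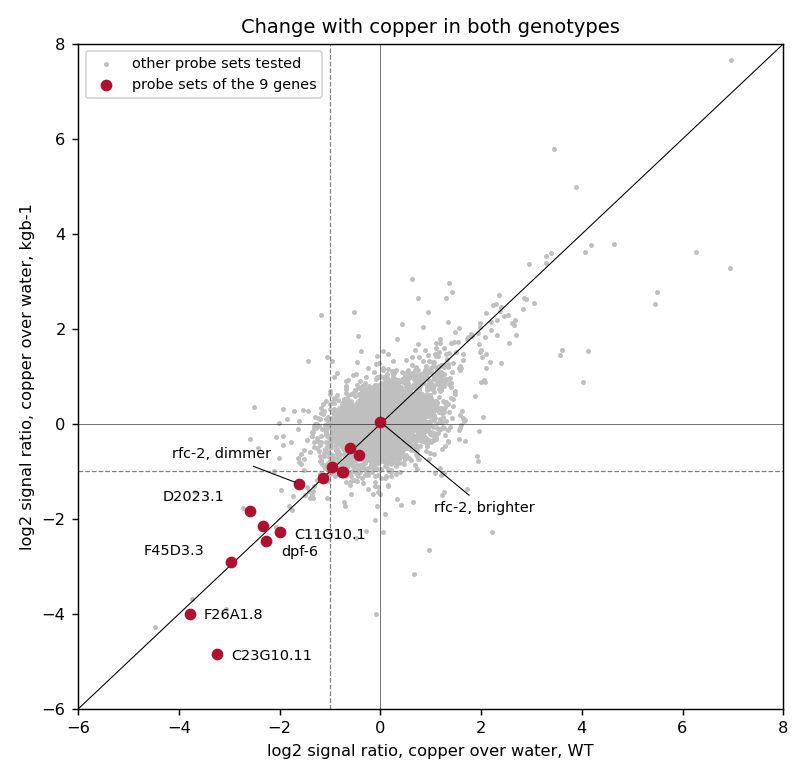
Log2 ratio of the copper signal to the water signal in WT (x axis) and *kgb-1* (y axis) for the 11266 probe sets tested, with the 15 probe sets of the 9 genes in red, the line of equal change and dashed lines at a 2-fold fall. The red points lie close to the line of equal change, except *C23G10.11*, with a difference of -1.61 (*kgb-1* minus WT), and *D2023.1*, with 0.76.

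The size of the fall was compared between the genotypes as the log2 ratio in *kgb-1* mutants minus that in WT animals. The fall was steeper in the mutants for 7 probe sets and steeper in WT animals for 8. The median size of this difference was 0.21, against 0.20 over all probe sets tested. For 8 of the 15 it was under 0.22, the largest SD of the hybridization controls. That SD is of a single log2 ratio, while the difference joins 2 ratios, so it does not measure the spread of the difference. With a median of 0.20 over all probe sets, differences this small were usual on these arrays. The widest differences were -1.61 for *C23G10.11*, 0.76 for *D2023.1* and 0.36 for the _x_at probe set of *rfc-2*. For *C23G10.11* the mutant copper signal was under 100, and for *D2023.1* both copper signals were. The difference could not be tested with 1 array per condition, and similar falls in both genotypes were part of how the genes were chosen.

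A contrast that did not choose the genes is that between *kgb-1* mutants and WT animals. The log2 ratio of *kgb-1* to WT over the 15 probe sets ran from -1.67 to 1.69 with copper (median 0.025) and from -0.20 to 0.94 without (median 0.12). Both ends of the range with copper rest on signals under 100, of *C23G10.11* in the mutants and of *D2023.1* in both genotypes. Over all probe sets tested the medians were -0.0031 with copper and 0.015 without. Fitted in limma with both factors, 0 of the 15 probe sets passed at a Benjamini-Hochberg adjusted p under 0.05, and 3 had an unadjusted p under 0.05. Over all 11266 probe sets tested, 0.284% were called lower and 0.0533% higher in the mutants, and 10.8% had an unadjusted p under 0.05. Fits with genotype as the only factor and without the variance trend also called 0 of the 15. Over all probe sets the former called 0 higher and 2 lower and the latter 0 and 0, so these fits tell nothing about the 15. The 3 probe sets were those of *D2023.1* (log2 difference 1.32, 95% interval 0.47 to 2.16, adjusted p = 0.263 in limma), the _s_at probe set of *B0361.9* (0.41, 0.050 to 0.77, adjusted p = 0.409) and *C23G10.11* (-0.86, -1.71 to -0.016, adjusted p = 0.458). *D2023.1* gave 245 in untreated mutants and 128 in untreated WT animals, while both copper signals were under 100. For *B0361.9* the mutant signal was above the WT signal on both probe sets, with copper and with water. For *C23G10.11* the difference lay with copper (47.1 in the mutants and 149.8 in WT animals), since the water signals were 1361 and 1418. For *F26A1.8* the fitted difference was -0.14 with a 95% interval of -0.43 to 0.14, for *F45D3.3* it was 0.17 (-0.12 to 0.46), and for *dpf-6* it was -0.096 (-0.43 to 0.24). These intervals leave room for modest differences in either direction.

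**Figure D3:**
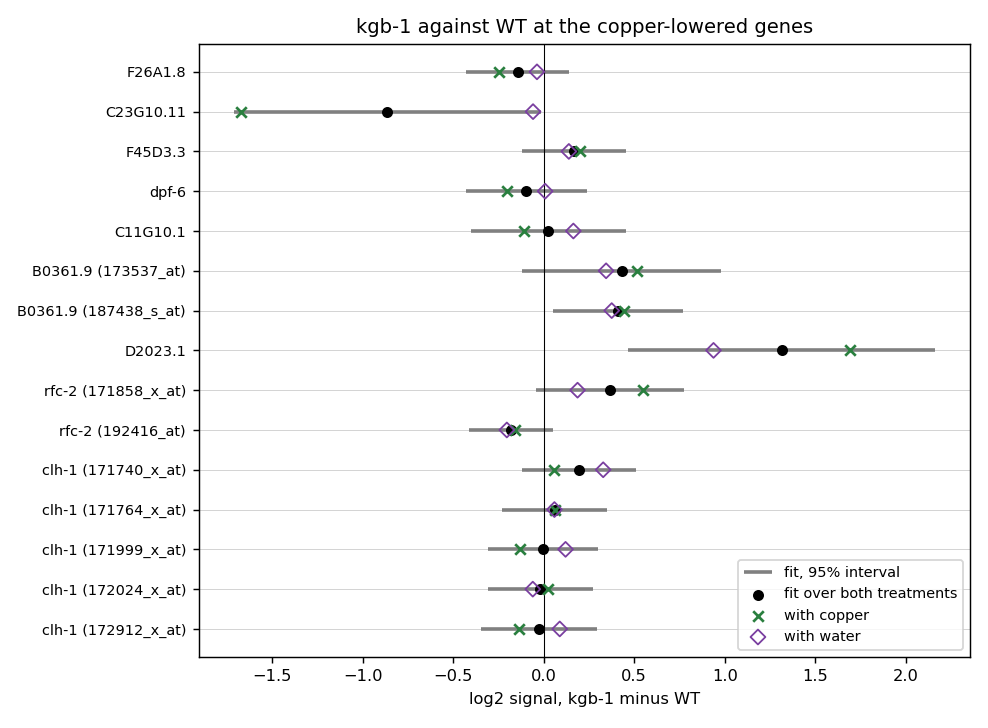
Log2 signal of *kgb-1* minus WT for each of the 15 probe sets, with copper (crosses), with water (diamonds) and from the limma fit over both treatments (black points, grey bars for the 95% interval). Most points lie within 0.5 of 0, and the points of *D2023.1*, fitted at 1.32 and at 1.69 with copper, lie farthest to the right.

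Limma has 1 residual degree of freedom here, which is the disagreement of the genotypes over copper. Genes that fell in both genotypes were chosen, so the genotype p-values of the 15 probe sets are not independent of the choice. Any difference between the strains' cultures would also be read as genotype. Sperm markers gave lower signals in the mutants, with a median log2 difference of -0.60. All 5 tested probe sets of that list had an unadjusted p under 0.05 in limma, and 0 passed after adjustment. The summed signal over all 12 of their probe sets was 6691 in copper-treated and 7054 in untreated *kgb-1* mutants, against 10371 in copper-treated and 10039.6 in untreated WT animals, with 8 of 12 probe sets under 100 on each mutant array and 7 of 12 on each WT array. The 3' to 5' signal ratio of the catalase control was 2.90 in copper-treated and 3.63 in untreated mutants, against 4.62 in copper-treated and 4.61 in untreated WT animals. The part of these in the values above was not tested.

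Each family or complex was then examined for whether other members fell. Of 76 probe sets tested for 5 lists of related genes, leaving out the 9 genes, 0 were called for copper by limma and 5 (6.58%) had an unadjusted p under 0.05, against 12.8% of all probe sets tested. The same fit called 0.346% of all probe sets lower and 1.18% higher with copper, and called 12 of the 15 probe sets of the 9 genes lower, from which nothing is read because copper chose them. Among ClC channels, 4 probe sets outside *clh-1* were tested, with a median shared log2 change of -0.24. *clh-5* gave 938 in copper-treated and 1074 in untreated *kgb-1* mutants and 867 in copper-treated and 1129 in untreated WT animals on the probe set with the smallest p of its 3 (log2 change -0.29, adjusted p = 0.382 in limma). *clh-6* gave 91.6 and 110.2 in the mutants and 64.2 and 93.3 in WT animals, and the probe sets of *clh-2*, *clh-3* and *clh-4* were under 100 on all arrays.

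In the dipeptidyl peptidase IV family, 5 probe sets outside *dpf-6* were tested, with a median log2 change of -0.059. *dpf-4* gave 1353 in copper-treated and 1447 in untreated *kgb-1* mutants and 1492 in copper-treated and 1493 in untreated WT animals. *dpf-5* gave 2979 and 2869 in the mutants and 2975 and 3354 in WT animals, and the probe set of *dpf-6* stood apart with -2.37 as its shared log2 change. Among replication factor C, the sliding clamp and the checkpoint clamp, 8 probe sets outside *rfc-2* had a median log2 change of 0.020. The other subunits of replication factor C, *rfc-1*, *rfc-3* and *rfc-4*, had log2 changes of 0.025, 0.079 and 0.013, and *pcn-1*, the gene for PCNA, 0.015. These values are near the 0.019 of the *rfc-2* probe set without a suffix and far from the -1.44 of the other. Of 36 probe sets for other DNA replication genes the median was 0.012, and of 23 for cyclins and mitotic kinases -0.034, with 0 called in each list.

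**Figure D4:**
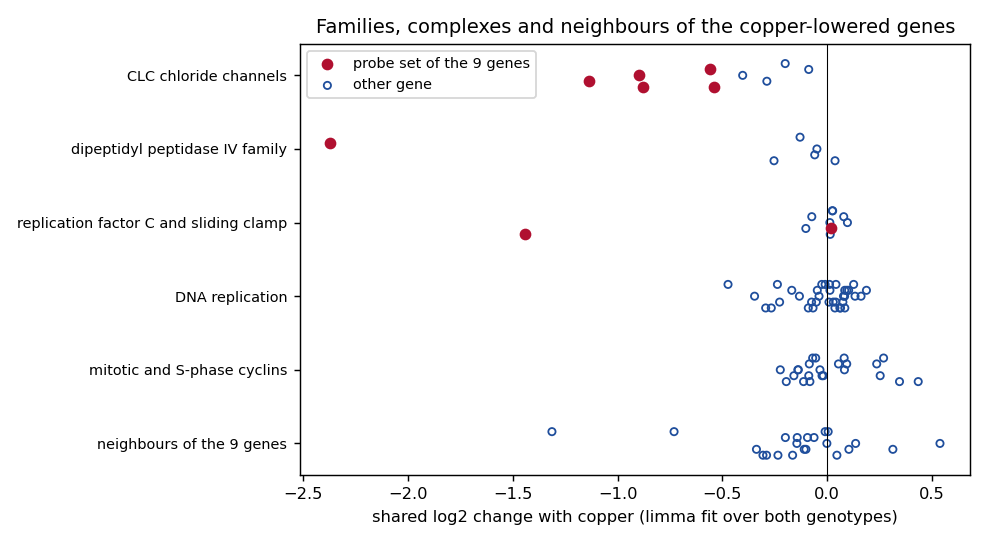
Shared log2 change with copper from the limma fit for each tested probe set of the 5 lists of related genes and of the chromosomal neighbours, with probe sets of the 9 genes in red. The red points of *dpf-6* (-2.37) and of 1 *rfc-2* probe set (-1.44) stand apart from the open points of their lists, and *mfsc-1* (-1.31) lies farthest left among the neighbours.

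Of the 9 genes, 4 (44.4%) lie on chromosome III, which holds 16.98% of the 8529 genes tested, and 0 lie on chromosome I, which holds 17.4%. With 9 genes chosen by their signals this is a description only. Beside each gene, the 2 nearest protein-coding genes on each side with a probe set of their own were read, which gave 36 genes with 47 probe sets, of which 22 reached 100 on some array. Of these 22, 2 were called lower with copper and 0 higher, against the 0.346% lower and 1.18% higher over all probe sets tested, and their median log2 change was -0.11. The neighbours of *F26A1.8* were under 100 on all arrays, so nothing was measured on either side of it.

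Both lowered neighbours lie next to their gene with no other protein-coding gene between. *mfsc-1* ends 471 bases before *clh-1* starts on chromosome II (11842617 to 11846035). It gave 801 in copper-treated and 2359.7 in untreated *kgb-1* mutants and 837 in copper-treated and 1754 in untreated WT animals (log2 change -1.31, adjusted p = 0.0117 in limma, lower in both genotypes). Its fall was thus of the same order as that of the most responsive *clh-1* probe set. *F45D3.4* starts 1827 bases after *F45D3.3* ends on chromosome V (12552213 to 12553191). On its _s_at probe set it gave 3969.9 and 6672 in the mutants and 4085 and 6694 in WT animals (log2 change -0.73, adjusted p = 0.0120 in limma, lower in both genotypes). On its other probe set it gave 3653 and 4249 in the mutants and 3115 and 4276 in WT animals and was not called (log2 change -0.34, adjusted p = 0.235 in limma). The fall of *F45D3.3* was likewise read on an _s_at probe set only. *mfsc-1* was called in 13 of 14 alternative settings, the exception being the fit without a variance trend (adjusted p = 0.141 in limma). *F45D3.4* was called in 10 of 13, and not without the variance trend or without either of the water arrays (adjusted p up to 0.175 in limma). Further along the same stretch, *sel-1*, a gene of protein degradation at the endoplasmic reticulum, had log2 changes of -0.16 and -0.11 and was not called.

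Other genes were lower with copper too. Limma called 39 probe sets lower with copper, of which 12 belong to the 9 genes, 25 to other single genes and 2 carry several symbols. The probe set shared by *F26A1.8* and *F26A1.7* is among these 2. The 10 with the smallest adjusted p among the 25 come from 9 genes, with log2 changes of -2.12 to -1.31. Some probe sets outside these 10 and the 15 fell further. The largest fall among the 10 was that of *F25E5.8*, with 236 in copper-treated and 1059.8 in untreated *kgb-1* mutants and 209 in copper-treated and 879 in untreated WT animals (log2 change -2.12, adjusted p = 0.00110 in limma, lower in both genotypes). *mfsc-1*, the neighbour of *clh-1*, is also among these 9 other genes. *oat-1*, an organic anion transporter gene, gave 105 and 347 in the mutants and 96.6 and 342 in WT animals on the first of its probe sets and was also called on another (log2 change -1.50), while the remaining one missed the threshold (log2 change -1.03, adjusted p = 0.05002 in limma). *swt-3*, of the SWEET sugar transporter family, gave 309.9 and 873.5 in the mutants and 235 and 599.8 in WT animals. *amt-4*, of the ammonium transporter family, gave 241 and 646 in the mutants and 190.3 and 483 in WT animals. *tbc-7*, which encodes a protein with the TBC domain of Rab GTPase-activating proteins, gave 158 and 451 in the mutants and 130.2 and 432 in WT animals. Every one of these copper signals was below both water signals of its probe set. *F25E5.8* was called in all 14 alternative settings. Without the variance trend the calls of *swt-3*, *amt-4*, *tbc-7* and 1 *oat-1* probe set were lost, and with copper as the only factor that of *swt-3*. Without the untreated mutant array the calls of *oat-1*, *swt-3*, *amt-4* and *tbc-7* were lost, with adjusted p of up to 0.197 for *amt-4* in limma, and without the untreated WT array those of both *oat-1* probe sets were lost. The fits with an array left out also dropped genotype, so these losses cannot be laid to the missing array alone. The direction stayed lower in every setting for each of these genes. In all, 17 probe sets other than the 15 were past 2-fold lower in both genotypes, among them that annotated to *F26A1.8* and *F26A1.7* together.

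Markers of the tissues of the adult were read to see whether a tissue as a whole moved with the 9 genes. Of 128 marker probe sets tested, for germline, oocytes and early embryos, sperm, intestine, epidermis, body wall muscle, neurons, glia and the excretory cell, 0 were called for copper and 1 for genotype. That one was *dpy-5*, which encodes a proprotein convertase that acts in cuticle formation and was used as an epidermal marker. It gave 182 in copper-treated and 226 in untreated *kgb-1* mutants, against 748 and 645 in WT animals. Among the 11266 probe sets, limma called 0.346% lower and 1.18% higher with copper, and 0.284% lower and 0.0533% higher in the mutants. At such shares few calls are due among 128 probe sets, so these counts do not show whether a tissue moved. The median shared log2 change with copper of the 9 lists ran from -0.060 to 0.081. The intestinal markers had the highest, and their summed signal was 196288 in copper-treated and 176500 in untreated mutants, and 203538 in copper-treated and 185435 in untreated WT animals. The sum for oocytes and early embryos was 207036 and 204109 in the mutants, and 221159 and 209428 in WT animals. That for neurons was 12304 and 11933 in the mutants, and 12487 and 11992 in WT animals. The sum for glia was 4078 and 3443 in the mutants, and 3537 and 3532 in WT animals. These 4 sums were above their water values in both genotypes, and 0 of the 9 were below them in both. Such sums are set mostly by the brightest probe sets. The median shared log2 change was -0.037 for neurons, against 0.081 for intestine, 0.017 for glia and 0.0016 for oocytes and early embryos. Of 23 neuron probe sets 8 to 10 were under 100 on each array, and of 13 for glia 8 or 9. The germline sum was 42377 and 41471 in the mutants, and 40795 and 43990 in WT animals. The part of these in the values of the 9 genes was not tested. For the actin control, signal at the 3' end divided by that at the 5' end, a sign of RNA quality, was 1.74 in copper-treated and 1.70 in untreated mutants and 1.76 in copper-treated and 1.85 in untreated WT animals.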

How the data were processed

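Per the labels and the methods, biotinylated cRNA made from 250 ng of total RNA was hybridized to Affymetrix GeneChips, processed once by a service company. The authors deposited MAS5 signal intensity values on a linear scale, each array scaled to a common intensity. The MAS5 version is not given in the sources used here. The values were used as deposited.

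Of 22625 probe sets, 77 are controls, 20766 carry 1 symbol in the platform's gene table, 887 carry several and 972 are not in that table. Those with several symbols were counted for no gene. All 9 genes matched RefSeq (WBcel235) by Entrez identifier, which gave positions only. Probe, promoter and protein sequences were not used here.

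Copper and genotype effects were fitted together on log2 intensity (limma 3.58.1, R 4.3.3) with a mean-variance trend, across the 11266 probe sets reaching 100 on some array. p-values were adjusted by Benjamini-Hochberg over all of them. The fit has 1 residual and 5.19 prior degrees of freedom. The residual is the disagreement of the genotypes over copper, since each condition has 1 array. Its p-values rest on that disagreement and on the prior taken from all probe sets, and hold no spread between like arrays. The fit was also run on simulated data, whose outcome is not given here, so that run vouches for none of these p-values. Medians and counts came from pandas 2.3.3 and numpy 2.4.6 under Python 3.11.15, and plots from matplotlib 3.10.9. The number of arrays limits the precision.

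The 9 genes and all lists were chosen with earlier results of these data known. The genes named are the 9, their 2 neighbours on each side, the 10 other probe sets lower with copper with the smallest adjusted p, up to 3 genes of each related list, and markers. Alternatives were a signal minimum of 50, 200 or none, quantile normalization, equal medians, an offset of 32, signals under 100 raised to 100, leaving out probe sets whose suffix marks shared sequences, only the factor tested, no variance trend, and each array left out. The fits with an array left out also had only the factor tested.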

Additional observations from a re-analysis of the deposited data

Results flagged for a closer look

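*F53H1.3*, a neighbour of *rfc-2*, moved in opposite directions with copper in the 2 genotypes on both of its probe sets. On one it gave 193 in copper-treated and 307 in untreated *kgb-1* mutants (log2 ratio -0.67) and 324 in copper-treated and 248 in untreated WT animals (0.39). On the other it gave 156 and 186 in the mutants (log2 ratio -0.25) and 191 and 162 in WT animals (0.23). The difference was not tested, since each condition has 1 array. Opposite ratios, each past the control SD of 0.22, were common on these arrays. They were found in 417 (4.25%) of the 9815 probe sets with all 4 signals at least 100, in 9 of 114 such marker probe sets and in 0 of 11 such probe sets of the 9 genes. The last count follows from the choice of genes that fell in both genotypes, so nothing is read from it.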

How the results depend on the processing

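The counts over all probe sets depended on the setting, and the copper counts for the 9 genes, which were chosen by copper, did so too. Against 133 higher and 39 lower with copper, limma called 195 and 177 with equal medians, 54 and 15 without probe sets for shared sequences (fewer were tested), 65 and 25 with copper as the only factor, and 30 and 10 without the variance trend. Equal medians take out a shift of 0.13 (log2) of the array median in copper-treated WT animals. Each fit with an array left out also had only the factor tested, so its counts do not show the effect of the array alone. Leaving out each array gave 56 to 149 higher and 8 to 207 lower. The 207 came when copper-treated mutants were left out. The counts were 65 and 15 without the untreated WT array and 56 and 8 without the untreated mutant array. For genotype, against 6 higher and 32 lower, the counts were 11 and 52 with a minimum of 50, 1 and 22 with 200, 10 and 47 with quantile normalization, 48 and 112 with equal medians, 0 and 2 with signals raised to 100, 0 and 12 without shared sequences, 0 and 2 with genotype as the only factor, 0 and 0 without the trend, and 0 to 1 higher and 0 to 3 lower when single arrays were left out. Of the fits on all 4 arrays, none called any of the 15 probe sets for genotype, and that without shared sequences tested only 6 of them. Where a fit called few or no probe sets over all, this tells nothing about the 15. The 5 related lists kept 0 calls for both factors under the 4 alternatives run on them. The count of the 15 called lower with copper was 5 to 14.

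Of the 6 probe sets without such a suffix, 5 were past 2-fold lower in *kgb-1* mutants and 5 in WT animals, with median log2 ratios of -2.38 and -2.30. The WT median was -1.39 with an offset of 32 and -1.14 with signals raised to 100. The dim genes moved most, with *D2023.1* at -0.83 and the plain _at probe set of *B0361.9* at -1.44 as shared log2 change with signals raised to 100, against -2.22 and -2.24, and the 1 sign that turned was that of the *rfc-2* probe set without a suffix, uncalled at 0.019 and at -0.063 with equal medians. The causes were not tested. No paired analysis was possible because every condition has 1 array, and all carry the same replicate number. Signals under 100 limit what can be said of *D2023.1*, *C11G10.1*, *B0361.9* and, in the mutants, *C23G10.11*.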
